A study of Mus musculus with 25 samples.

Results

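The replication-dependent histone genes encode the bulk of the H1, H2A, H2B, H3 and H4 proteins of chromatin. They were taken as every gene whose symbol in the GENCODE M21 annotation begins with Hist1h, Hist2h, Hist3h or Hist4h. Of 70 such symbols 3 are pseudogenes and were left out, and Hist1h2bm and Hist1h2bh were not analysed here. This left 65 genes, of 45706 in the table of mouse tissue and 44674 in the table of cultured cells. By type there are 6 H1, 18 H2A, 16 H2B, 12 H3 and 13 H4 genes. By place, 52 lie in the Hist1 cluster on chromosome 13, 10 in the Hist2 cluster on chromosome 3, 2 in the Hist3 cluster on chromosome 11 and 1, Hist4h4, on chromosome 6.

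The study asked how a short high-fat diet alters the messenger RNA translated by vascular endothelial cells of the hypothalamus, and how cultured brain endothelial cells react to a block of the glucose transporter Glut1. For the tissue, all mice, controls included, were Slco1c1Cre+/-;ROSA26lSlL10aGFP+/-. Tamoxifen switches on a Cre recombinase driven by the Slco1c1 promoter, and Cre then releases a GFP-tagged ribosomal protein, L10a. Mice were 12 weeks old, 3 weeks past tamoxifen, and ate a control diet (CD) or one rich in fat (HFD) for 3 days. Each pool held the hypothalami of 4 mice, 2 male and 2 female. Pools gave an INPUT library of the whole lysate and an IP library of the RNA held by precipitated tagged ribosomes, with 4 libraries for each diet and each kind. The cells were cEND, an immortalised mouse brain endothelial line. They received the solvent DMSO or the Glut1 inhibitor WZB117 at 0.5 µM or 10 µM, in 3 libraries each, at passages 12, 14 and 18 of that 1 line. Neither treatment time nor library kit is stated in the sources used here. The design text speaks of mRNA sequencing for the cells, while the labels name total RNA.

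Replication-dependent histone genes are switched on together as cells enter S phase, when new DNA needs new nucleosomes, and their messages are degraded when replication stops. Most of these messages end not in a poly(A) tail but in a short stem-loop, which is bound by the stem-loop binding protein Slbp and cut by machinery guided by the U7 small nuclear ribonucleoprotein. Several of the genes are also known to give polyadenylated messages from a site past the stem-loop, mainly in cells that have stopped dividing. How much of this RNA a library holds therefore depends on the kit, which is not known here.

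The stem-loop is shown because it sets this gene family apart from other genes. A pattern of GG, 2 bases of any kind, CTTTT, 1 of any kind, AG, 2 of any kind and CC was searched on the sense strand of GRCm38 within 150 bases after the stop codon, and 61 of 65 genes held a match. It was not found at Hist2h2be, Hist1h2an, Hist1h3g or Hist1h4a. The 6 variants are given with 5 flanking bases on each side, 5′ to 3′, the stem-loop in capitals.
Hist1h1a (chr13:23764387-23764412, plus strand): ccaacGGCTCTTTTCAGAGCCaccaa
Hist1h3c (chr13:23745042-23745067, minus strand): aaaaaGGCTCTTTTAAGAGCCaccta
Hist2h2ac (chr3:96220413-96220438, minus strand): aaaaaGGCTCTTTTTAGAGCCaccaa
Hist4h4 (chr6:136803993-136804018, minus strand): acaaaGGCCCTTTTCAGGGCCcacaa
Hist2h4 (chr3:96262934-96262959, minus strand): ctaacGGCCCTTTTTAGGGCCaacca
Hist1h4j (chr13:21735432-21735457, plus strand): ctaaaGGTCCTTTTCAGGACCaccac

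The first form stood at 39 genes and the second at 9, in H1, H2A, H2B and H3 genes. Hist2h2ac alone had the third. The last 3 forms, at 8, 2 and 2 genes, were found at H4 genes only among the 61. The stem at these H4 genes thus differed from that of the other types, while the CTTTT and AG of the pattern were fixed by the search.

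Promoters are shown for the 4 marker genes, Hist1h1a, Hist1h2ah, Hist1h3g and Hist2h2aa1, since most of the tested family fell in treated cells. The RefSeq promoter table (GRCm38.p6) matched 60 of the 65 genes. The 160 bases before each RefSeq start are printed on the gene's strand, with matches on either strand to TATAAA, to the motif CCAAT and to the motif ATTTGCAT in capitals.
Hist1h1a (chr13:23763508-23763667, plus strand): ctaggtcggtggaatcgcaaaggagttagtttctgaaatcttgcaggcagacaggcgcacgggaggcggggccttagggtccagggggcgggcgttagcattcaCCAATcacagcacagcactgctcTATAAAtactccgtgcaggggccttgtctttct
Hist1h2ah (chr13:22035644-22035803, minus strand): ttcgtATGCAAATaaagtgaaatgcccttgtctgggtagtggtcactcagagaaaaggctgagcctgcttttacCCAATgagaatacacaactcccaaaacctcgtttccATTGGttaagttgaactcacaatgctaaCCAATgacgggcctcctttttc
Hist1h3g (chr13:23535258-23535417, plus strand): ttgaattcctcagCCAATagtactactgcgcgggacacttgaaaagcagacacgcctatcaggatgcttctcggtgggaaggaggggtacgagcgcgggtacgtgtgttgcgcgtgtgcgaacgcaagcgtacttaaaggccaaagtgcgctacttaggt
Hist2h2aa1 (chr3:96245337-96245496, plus strand): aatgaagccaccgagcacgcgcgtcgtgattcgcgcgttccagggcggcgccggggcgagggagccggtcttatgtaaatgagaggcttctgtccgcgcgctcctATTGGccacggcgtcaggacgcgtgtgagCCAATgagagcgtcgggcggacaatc

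Motifs were counted on both strands from 250 bases before to 50 after the start. CCAAT, the core of the CCAAT box, was in 85.0% of the 60 histone promoters and in 37.4% of all 32851 promoters in the table. It was in all 48 promoters of H1, H2A, H2B and H3 genes but in 3 of 12 H4 promoters. TATAAA, the core of the TATA box, was in 35 of 60 (58.3%), against 13.6% of all promoters. ATTTGCAT, the octamer bound by Oct1, was in 7 H2A and 5 H2B promoters and in no H1, H3 or H4 promoter, against 1.74% of all. AAACACA, described for H1 promoters, was in 5 of 6 H1 promoters, against 7.18% of all, and not in that of Hist1h1a. None of the 4 motifs contains another, and a match describes these letters only.

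Totals ran from 27.9 M to 42.8 M estimated counts per tissue library and from 27.3 M to 41.3 M per cEND library. Levels below are CPM, that is counts per M of library size after TMM scaling. In IP, all 6 astrocyte and all 7 endothelial markers rose against INPUT, Slco1c1 by 3.12 ± 0.11 on the log2 scale, while all neuron (4), oligodendrocyte (4), microglia (4) and erythroid (5) markers fell, where 41.6% of all genes tested rose and 42.1% fell. Markers of oligodendrocyte progenitors (2 rose, 2 fell) and leukocytes (1 rose, 3 fell) were divided. Summed over each list, astrocyte markers stood at 14510 to 19468 CPM in IP and endothelial markers at 114 to 171 CPM, against 2082 to 2771 and 18.9 to 25.1 CPM in INPUT. In cEND libraries, endothelial markers summed to 3286 to 4467 CPM and neuron markers to at most 0.619 CPM, but Slco1c1 was too low there to be tested. Histone genes resemble each other closely. Of the 50-base words of a histone gene a median of 49.7% also occurred in another gene, at 16 genes 80% or more did, and 81.3% of the genes' values in tissue and 87.4% in cEND were fractional, against 17.3% and 19.8% over all genes. The split between near-identical copies is thus an estimate, and sums over types and copies are given beside single genes. Of the 65 genes 21 overlap another gene on the opposite strand and 7 on the same strand. Among the latter are Hist3h2a, which overlaps Trim17, and Hist2h2aa1, which overlaps Gm20634, so their counts may hold reads of those genes. Whether the counting used strand is not given in the sources used here.

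In cEND cells 40 of the 61 histone genes that could be tested fell at WZB117 10 µM, and none passed the test at 0.5 µM. Added over all 65 genes, DMSO libraries held 5424, 5814 and 4384 CPM at passages 12, 14 and 18. The libraries at 10 µM held 1949, 2581 and 2077 CPM, all below every DMSO library. Against the DMSO library of the same passage this was 35.9%, 44.4% and 47.4%. The fitted log2 difference of the sum was -1.24 ± 0.20 (SE, 3 against 3 libraries). In bulk samples, fewer cells in S phase and less histone RNA per cell cannot be told apart.

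**Figure D1:**
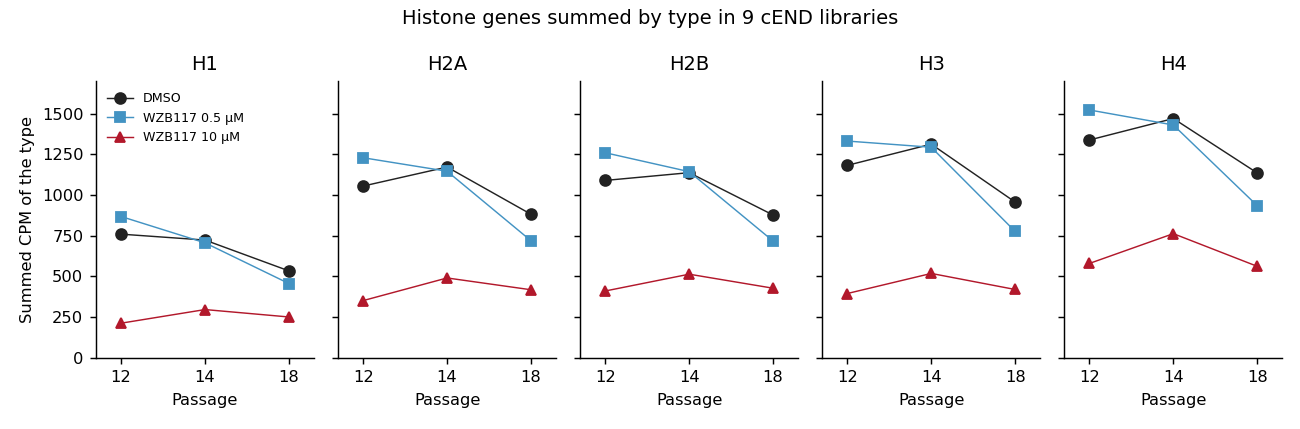
Summed CPM (y axis, from 0) of the H1, H2A, H2B, H3 and H4 genes in the 9 cEND libraries by passage (x axis); each point is 1 library, coloured by treatment, and lines join libraries of a treatment. In every panel the 3 points at 10 µM lie below all DMSO and 0.5 µM points, for example 213 to 296 CPM against 534 to 759 CPM in DMSO for H1.

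All 5 types took part. H1 genes, the linker histones, summed to 759, 723 and 534 CPM in DMSO and 213, 296 and 251 CPM at 10 µM, a log2 difference of -1.41 ± 0.24. The core histones followed with -1.30 ± 0.21 for H2A, -1.20 ± 0.20 for H2B and -1.37 ± 0.21 for H3. H4 genes summed to 1338, 1470 and 1135 CPM in DMSO and 580, 763 and 562 CPM at 10 µM, a log2 difference of -1.05 ± 0.20. For each type the treated libraries lay below all DMSO libraries. Within H4 the clusters differed in value, with -0.96 ± 0.20 in Hist1, -1.51 ± 0.18 in Hist2 and -1.55 ± 0.16 for Hist4h4. Whether they differ from each other was not tested.

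Gene by gene, 61 of the 65 passed the filter on low counts and could be tested, and Hist2h3c1 was listed at 0 in all 9 libraries. Tests are edgeR's quasi-likelihood test with Benjamini-Hochberg adjustment over all genes of the table. At 10 µM against DMSO 40 fell and 0 rose at an adjusted p under 0.05, where 0.42% of the 15466 genes tested fell and 0.853% rose. All 61 log2 fold changes were negative, with a median of -1.28 against -0.01 over all genes tested, and 57 had an unadjusted p under 0.05, beside 11.2% of all genes. By type, 4 of 5 H1, 12 of 17 H2A, 8 of 16 H2B, 10 of 11 H3 and 6 of 12 H4 genes fell. By cluster it was 31 of 49 in Hist1, 7 of 9 in Hist2, 1 of 2 in Hist3 and Hist4h4. With the passage as a block, 56 of 61 fell, beside 9.29% of all genes, and 39 of the 40 were among them. The count of 40 was 3 without DMSO passage 12 and 5 without DMSO passage 14. It was 4 without 10 µM passage 12 and 9 without 10 µM passage 18. Shares of all genes in these refits are not given, so the counts show only that the number of calls depends on single libraries.

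**Figure D2:**
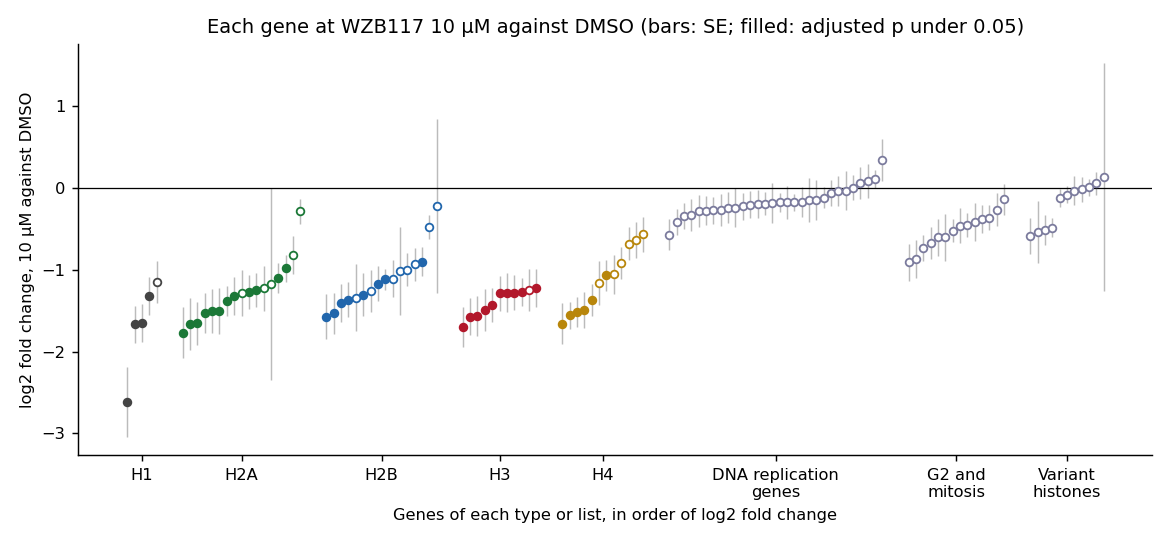
Log2 fold change at WZB117 10 µM against DMSO (y axis) for each tested histone gene by type, and for genes of DNA replication, of G2 and mitosis and for variant histones (x axis, in order of value); bars are SE and filled points have an adjusted p under 0.05. All 61 histone genes lie below 0, around a median of -1.28. In this fit, which held no passage term, no gene of the other 3 lists is filled. With the passage as a block 56 of 61 histone genes fell, beside 9.29% of all genes. Then 9 of 30 DNA replication, 13 of 14 G2 and mitosis and 3 of 11 variant histone genes fell too.

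Hist1h1a, the linker histone H1.1, had the lowest fold change. Its level was 13.0, 12.7 and 7.84 CPM in DMSO, 12.0, 12.0 and 5.06 CPM at 0.5 µM, and 1.36, 2.87 and 1.26 CPM at 10 µM. The libraries at 10 µM lay apart from the other 6. At 10 µM it fell by 2.61 ± 0.43 on the log2 scale (adjusted p = 0.0211). No 50-base word of Hist1h1a occurs in another gene, so its counts do not rest on a split between copies.

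Hist1h2ah, an H2A gene, stood at 59.7, 80.4 and 48.1 CPM in DMSO and 13.7, 24.6 and 17.1 CPM at 10 µM. The groups did not overlap, and it fell by 1.77 ± 0.31 (adjusted p = 0.0297). It is near-identical to Hist1h2ad, Hist1h2ai and Hist1h2an, and their sum fell by 1.39 ± 0.25 (adjusted p = 0.0318). Hist1h3g, an H3 gene, stood at 69.7, 74.8 and 51.2 CPM in DMSO and 18.6, 25.8 and 16.1 CPM at 10 µM, again with no overlap. It fell by 1.70 ± 0.24 (adjusted p = 0.0129).

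Hist2h2aa1, an H2A gene of the Hist2 cluster, stood at 111, 99.7 and 92.0 CPM in DMSO and 30.5, 42.3 and 55.2 CPM at 10 µM. All 3 treated libraries were lower, and it fell by 1.24 ± 0.21 (adjusted p = 0.0226). With the passage as a block the adjusted p was 0.0583, the only one of the 40 calls lost. Its near-identical copy Hist2h2aa2 stood at 171, 215 and 170 CPM in DMSO and 76.5, 101 and 82.9 CPM at 10 µM, and it fell by 1.09 ± 0.18 (adjusted p = 0.0235). The sum of both copies fell by 1.14 ± 0.16 (adjusted p = 0.0114), so the call did not rest on how reads were split between them.

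Among the genes with the lowest fold changes were also Hist1h1d (H1.3, -1.66 ± 0.23, adjusted p = 0.0121), Hist1h2ae (-1.66 ± 0.32, adjusted p = 0.0408) and Hist1h4j (-1.66 ± 0.25, adjusted p = 0.0162). Hist4h4, which sits alone outside the 3 clusters and was chosen after its values were seen, had the smallest adjusted p of the 61. It stood at 172, 166 and 135 CPM in DMSO and 54.0, 53.4 and 53.8 CPM at 10 µM. The treated libraries were close together whatever the passage, and it fell by 1.55 ± 0.17 (adjusted p = 0.00451).

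Per kilobase of exon, the highest level of each type in DMSO belonged to Hist1h4n at 437 CPM per kb, Hist2h2aa2 at 351, Hist2h2bb at 347, Hist1h3i at 307 and Hist1h1b, H1.5, at 146. Exon length took in all annotated exons, also past the stem-loop, so this order depends on the annotation. Hist1h1e, with 1930 exon bases, had a mean of 199 CPM in DMSO but 103 CPM per kb. Hist1h1b, with 743 exon bases, had a mean of 108 CPM. Over all cEND libraries the leading H3 gene was Hist2h3b. All of Hist1h4n (-1.37 ± 0.20, adjusted p = 0.0132), Hist2h2bb (-1.11 ± 0.13, adjusted p = 0.00515), Hist2h3b (-1.27 ± 0.17, adjusted p = 0.0101) and Hist1h1b (-1.65 ± 0.23, adjusted p = 0.0128) fell. The expression of the family was spread widely, as the 6 highest genes held 21.6% of its summed CPM in DMSO.

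A few genes were lowered little, and these were chosen after their values were seen. Hist2h2ab, an H2A gene, stood at 7.81, 8.20 and 7.88 CPM in DMSO and 6.84, 6.68 and 6.17 CPM at 10 µM. The groups did not overlap but its log2 fold change was -0.28 ± 0.16 (adjusted p = 0.595). Hist2h2be, an H2B gene in which no stem-loop was found, had -0.47 ± 0.14 (adjusted p = 0.217). Of the H4 genes Hist1h4a had -0.56 ± 0.21 (adjusted p = 0.334), Hist1h4d -0.63 ± 0.22 (adjusted p = 0.299) and Hist1h4c -0.68 ± 0.20 (adjusted p = 0.218). With the passage as a block Hist2h2be and these 3 H4 genes fell, while Hist2h2ab did not pass (adjusted p = 0.163).

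Counting libraries alone, 58 of the 59 genes with a mean of at least 1 CPM had every 10 µM library below every DMSO library, beside 7.26% of all genes. The exception was Hist1h2ba, the testis H2B, at 1.45, 1.82 and 0.963 CPM in DMSO and 0.971, 0.776 and 0.329 CPM at 10 µM. Within passages, all 59 were lower at 10 µM than in DMSO in each of the 3, beside 25.9% of all genes.

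Sequence features divided the response little, by medians given as description. Genes with TATAAA in the promoter had a median log2 fold change of -1.34 (33 genes) and those without -1.22 (23 genes). Genes with the commonest stem-loop had -1.28 (37 genes) and those with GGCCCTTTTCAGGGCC, all H4, -1.05 (7 genes). Genes whose 50-base words were shared to at least 80% had -1.43 (14 genes) and those under 20% had -1.32 (11 genes). Thus genes counted mostly from their own reads had medians similar to those of the copies.

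At 0.5 µM none of 61 genes passed against DMSO, beside 0% of all genes, and none had an unadjusted p under 0.05, beside 0.356%. DESeq2 called none either. The sum over all genes was 6210, 5719 and 3602 CPM at passages 12, 14 and 18, that is 114%, 98.4% and 82.2% of the DMSO library of the same passage. It was above DMSO at passage 12 and below at passage 18, so the libraries had no common direction. The log2 difference of the sum was -0.01 ± 0.20. The 5 genes of smallest p were Hist2h2be (0.11 ± 0.14), Hist1h2ao (-0.84 ± 1.16), Hist3h2a (-0.11 ± 0.17), Hist1h2ba (0.32 ± 0.52) and Hist3h2ba (-0.24 ± 0.40). Between the doses, 10 µM against 0.5 µM, 40 of 61 fell, beside 0.414% of all genes, and 55 with the passage as a block, beside 8.55%. The 40 dropped to between 3 and 8 without passage 12 or 18 of the 10 µM libraries or passage 12 or 14 of those at 0.5 µM, and to 26 or 20 without DMSO passage 12 or 14. Shares of all genes in these refits are not given. Hist1h1a led between the doses too at -2.40 ± 0.42 (adjusted p = 0.0299). This comparison shares its 10 µM libraries with that against DMSO.

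Other genes of the cell cycle and of histone supply were compared by lists. At 10 µM none of 30 genes of DNA replication passed (median log2 fold change -0.18), nor any of 14 genes of G2 and mitosis (-0.49), 11 variant histones (-0.08), 17 factors of histone transcription and message processing (-0.07) or 10 histone chaperones (-0.10). With the passage as a block, 13 of the 14 G2 and mitosis genes fell, where 9.29% of all genes fell and 9.23% rose, among them Cenpf, a kinetochore protein (-0.86 ± 0.06, adjusted p = 3.1e-10). Then 9 of the 30 DNA replication genes fell and 0 rose, among them Ccna2, cyclin A2 (-0.59 ± 0.07, adjusted p = 2.9e-07), and Prim1, a primase subunit (-0.35 ± 0.08, adjusted p = 0.0016). Of the 11 variant histones 3 fell, namely Cenpa, the centromeric H3 (-0.58 ± 0.07), H1f0, the linker histone of resting cells (-0.52 ± 0.07), and H2afx, the H2A of DNA damage marking (-0.48 ± 0.07). The histone genes' median of -1.28 in the same blocked fit was lower than the fold change of each of these genes. Whether the cell cycle lists' fall had a part in that of the histone genes was not tested.

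Of the 17 factors, 2 fell and 1 rose in the blocked fit, shares near those of all genes. Slbp itself stood at -0.04 ± 0.07 (adjusted p = 0.748) and Npat, the coactivator of histone loci, at 0.04 ± 0.07 (adjusted p = 0.814). Lsm11, a subunit of the U7 particle, fell by 0.50 ± 0.08 (adjusted p = 8.7e-05), and Cpsf2, a subunit of the cleavage complex, fell by 0.19 ± 0.06 (adjusted p = 0.0405). Hinfp, a transcription factor of H4 genes, rose by 0.30 ± 0.09 (adjusted p = 0.0168). The other 12 factors did not pass. Of the 10 chaperones 3 fell in the blocked fit, beside 9.29% of all genes. They were Asf1b (-0.45 ± 0.09), Chaf1b (-0.36 ± 0.10) and Nasp (-0.29 ± 0.06), which carry new histones to replicating DNA. The other 7 did not pass.

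Passages were compared with each other over the 9 cEND libraries. The 3 libraries of a passage are 3 treatments, so the fit held treatment as a term. They are not replicate cultures of that passage, so the p-values here do not measure the spread between cultures. From passage 12 to 18 14 of 61 histone genes fell and 0 rose, beside 19.2% of all genes that fell, so the share was near the background. The log2 difference of the sum was -0.32 ± 0.17. From 14 to 18 19 of 61 fell, beside 17.3%, with a sum difference of -0.44 ± 0.17. From 12 to 14 Hist1h4a alone rose (0.26 ± 0.08, adjusted p = 0.025), beside 10.1%. Without the treatment term none passed in any of the 3 comparisons. From 12 to 18 the count was 8 without DMSO passage 12, 9 without DMSO passage 18 and 38 without 10 µM passage 12. From 14 to 18 it was 46 without 10 µM passage 12, 45 without 0.5 µM passage 12, 11 without 10 µM passage 14, 12 without 0.5 µM passage 14 and 30 without 10 µM passage 18. From 12 to 14 it reached 21 without 0.5 µM passage 12. It was 2 to 6 without DMSO passage 14 or 18, 0.5 µM passage 18 or 10 µM passage 12. Shares of all genes in these refits are not given, so nothing about the histone genes is read from these counts. Hist1h1a was again among the most lowered, by -0.80 ± 0.19 from passage 12 to 18 (adjusted p = 0.00421) and -1.02 ± 0.19 from 14 to 18 (adjusted p = 0.000636). Others that fell from 12 to 18 were Hist1h2ba (-1.35 ± 0.32), Hist1h2bl (-0.53 ± 0.14), Hist1h3c (-0.48 ± 0.07), Hist1h2bg (-0.46 ± 0.14) and Hist1h3a (-0.46 ± 0.14). Besides Hist1h2ba (-1.18 ± 0.32), those from 14 to 18 included Hist1h4b (-0.72 ± 0.10), Hist1h3b (-0.66 ± 0.15), Hist1h3g (-0.64 ± 0.08) and Hist1h4k (-0.61 ± 0.13). None of 9 Hist2 genes passed from 12 to 18, where 13 of 49 Hist1 genes did. From 12 to 18 all 14 G2 and mitosis genes and 20 of 30 DNA replication genes fell too, and their part in the histone values was not tested.

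In hypothalamus histone genes took a smaller share of all counts than in cEND cells, and a few genes made up most of it. The tables were scaled separately, so only shares are set side by side. Histone genes took 0.024% to 0.033% of counts in INPUT and 0.088% to 0.126% in IP, against 0.43% to 0.58% in DMSO-treated cEND. These shares are of plain totals. With ribosomal RNA and mitochondrial genes left out they were 0.038% to 0.050%, 0.091% to 0.130% and 0.43% to 0.59%. Hist1h2aa, the testis H2A, was listed at 0 in all 16 tissue libraries. In CD INPUT, 27 of the 65 genes reached a mean of 1 CPM, against 59 in DMSO. The 6 highest genes held 73.0% of the summed CPM in CD INPUT and 85.1% in CD IP, and Hist1h2bc, an H2B gene, alone held 26.0% and 50.5%. Of the markers, Hist1h1a had 0.613 to 1.13 CPM in INPUT and 0.252 to 0.733 in IP, Hist1h2ah was at 0 in all INPUT and in 7 of 8 IP libraries, and Hist1h3g reached at most 0.108 CPM. Per kilobase the leading genes in CD IP were Hist1h2bc at 421 CPM per kb, Hist1h1c at 76.1, Hist1h4d at 68.0, Hist2h2aa2 at 61.9 and Hist2h3c2 at 8.27. This order too depends on the annotated exon length.

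**Figure D3:**
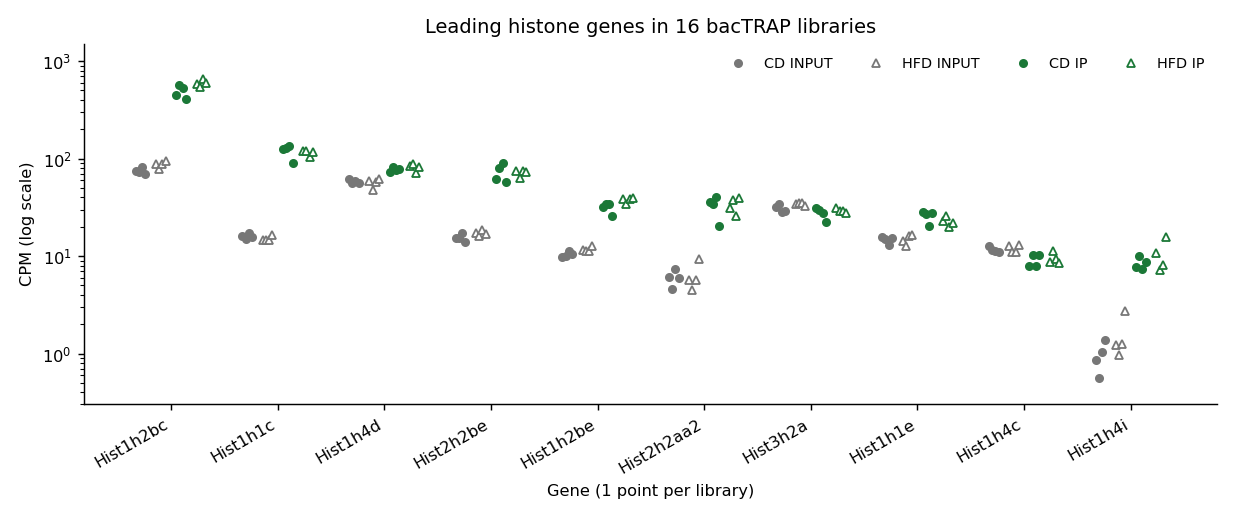
CPM on a log axis (y) of 10 leading histone genes (x) in the 16 tissue libraries, INPUT in grey and IP in green, CD as filled circles and HFD as open triangles. Hist1h2bc lies at 69.8 to 94.2 CPM in INPUT and 406 to 653 CPM in IP, while Hist3h2a overlaps between INPUT and IP.

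Between IP and INPUT the summed level of the histone genes differed, while single genes went both ways, as genes did over the whole table. Summed over all 65 genes, INPUT libraries held 275 to 342 CPM and IP libraries 816 to 1128 CPM, with no overlap. The log2 difference of the sum was 1.77 ± 0.06 (8 against 8 libraries), or 2.01 on plain totals and 1.43 with ribosomal RNA and mitochondrial genes left out of the totals. Those genes took 30.2% to 37.6% of INPUT counts and 2.8% to 3.5% of IP counts. The rise of the sum was uneven over types and clusters. By type the log2 difference was 2.36 ± 0.06 for H2B, 2.13 ± 0.06 for H1, 1.00 ± 0.27 for H3, 0.69 ± 0.06 for H2A and 0.55 ± 0.05 for H4. For H3 it was 1.41 ± 0.38 in the Hist2 cluster and 0.12 ± 0.10 in Hist1. The H3 sum of Hist2 overlapped between INPUT (2.28 to 11.4 CPM) and IP (8.77 to 29.0 CPM). Its genes went both ways, with Hist2h3c2 at 2.19 and Hist2h3b at -2.25. For H2A the log2 difference was 1.99 ± 0.13 in Hist2, -0.12 ± 0.10 in Hist1 and -0.19 ± 0.06 for Hist3h2a, the H2A gene of Hist3. Of 52 genes tested 18 rose in IP, beside 41.6% of all genes tested, and 18 fell, beside 42.1%, so neither share exceeded the background. Their median was -0.01, against -0.02 over all genes.

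Of the 6 highest genes in CD INPUT, 5 rose in IP, namely Hist1h2bc, Hist1h4d, Hist1h1c, Hist2h2be and Hist1h1e, and Hist3h2a fell. Hist1h2bc had a median of 79.6 CPM in INPUT (69.8 to 94.2) and 556 CPM in IP (406 to 653). Hist1h1c, H1.2, had a median of 15.2 CPM in INPUT (14.5 to 17.2) and 120 CPM in IP (89.4 to 133). Neither gene's IP libraries overlapped its INPUT libraries, and they rose by 2.74 ± 0.07 (adjusted p = 1.7e-20) and 2.92 ± 0.07 (adjusted p = 2.6e-20) on the log2 scale. Hist2h2aa1 had a median of 0.0924 CPM in INPUT (0 to 0.867) and 8.21 CPM in IP (5.22 to 13.7), and it rose by 4.89 ± 0.50. Hist2h2aa2 rose by 2.43 ± 0.18, from a median of 5.81 to 35.0 CPM, and the sum of both copies by 2.69 ± 0.15 (adjusted p = 4.0e-10). The fold change of Hist2h2aa1 alone, from a group with 4 of 8 libraries at 0, therefore depends on the split between copies. The H4 genes Hist1h4i (2.92 ± 0.24) and Hist1h4h (2.34 ± 0.13) rose as well.

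Among the genes that fell, some with an average log2 CPM under 0 had the lowest fold changes, such as Hist1h2ap (-3.20) and Hist2h3b (-2.25). Of those at or above that level the lowest was Hist3h2ba, an H2B gene of the Hist3 cluster. It had a median of 5.88 CPM in INPUT (4.63 to 7.33) and 2.85 CPM in IP (2.46 to 3.43). Its groups did not overlap, and it fell by 1.03 ± 0.10 (adjusted p = 9.5e-10). The H2A genes Hist2h2ab (-0.81 ± 0.14) and Hist2h2ac (-0.71 ± 0.15), the H3 gene Hist1h3e (-0.49 ± 0.15) and the H2B genes Hist1h2bf (-0.45 ± 0.17) and Hist1h2bb (-0.37 ± 0.12) fell too. The 6 genes from Hist3h2ba to Hist1h2bb were at or under 7.33 CPM in all 16 libraries. Higher genes fell as well, and the following were chosen after their values were seen. Hist3h2a had a median of 33.2 CPM in INPUT (28.4 to 35.3) and 29.0 CPM in IP (22.3 to 31.1), with overlap, and it fell by 0.20 ± 0.06 (adjusted p = 0.00376). On plain totals its log2 ratio was 0.04, the only sign that turned among the 36 genes called. Hist1h4c had a median of 11.5 CPM in INPUT (10.9 to 12.9) and 9.03 CPM in IP (7.87 to 11.2), overlapping a little, and it fell by 0.34 ± 0.08 (adjusted p = 0.000237). Hist1h1a fell by 0.57 ± 0.23 (adjusted p = 0.0239), and Hist1h2ah and Hist1h3g were too low to be tested.

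**Figure D4:**
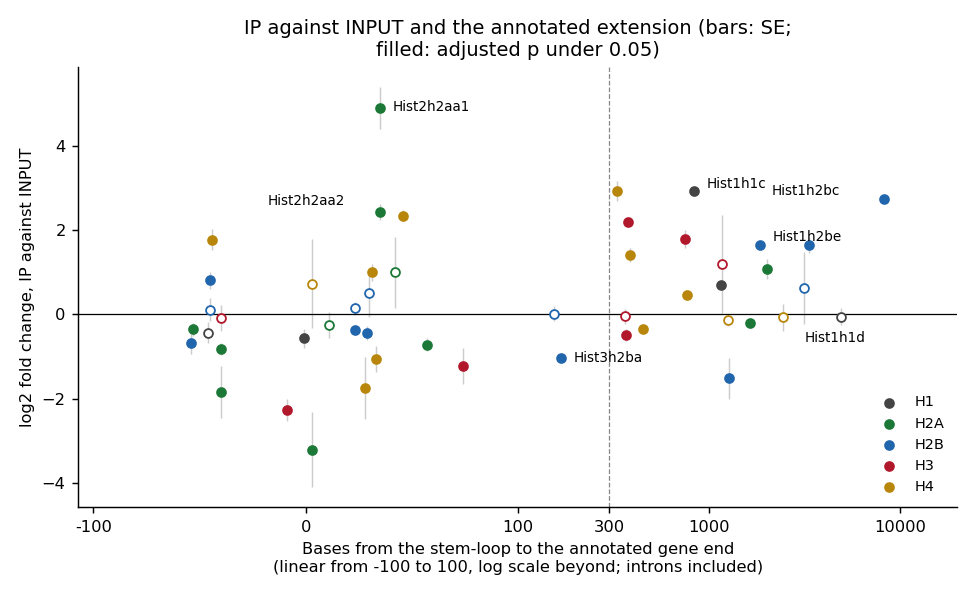
Log2 fold change of IP against INPUT (y axis, bars SE, filled where adjusted p is under 0.05) against the annotated bases from the stem-loop to the gene end (x axis, linear to 100 and log beyond), for tested genes with a stem-loop match, coloured by type. Right of the dashed line at 300 bases lie Hist1h2bc, Hist1h1c and Hist1h2be above 0, while Hist2h2aa1 and Hist2h2aa2 are above 0 to its left.

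The annotation runs on past the stem-loop at some genes. The distance from stem-loop to annotated gene end, introns included, was 8246 bases at Hist1h2bc, 840 at Hist1h1c, 1861 at Hist1h2be and 4884 at Hist1h1d. It was 300 bases or more at 21 of the genes, a limit chosen after the values were seen. Of these 21, 11 rose and 4 fell in IP against INPUT, with a median log2 fold change of 0.70. Of the other 31 genes tested 7 rose and 14 fell, with a median of -0.30. These other genes include some without a stem-loop match, whose distance is unknown, such as Hist2h2be (log2 fold change 2.13). Over all genes 41.6% rose and 42.1% fell, and nothing is read from the split, whose difference was not tested. Some long genes did not pass, such as Hist1h1d at -0.05 ± 0.21. Hist1h2be overlaps Hist1h1e on the same strand, and the count of either may hold reads of the other. In cEND the extension did not separate the genes at WZB117 10 µM, with a median of -1.28 both for the 20 longer and the 41 other genes.

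The rise in IP stood beside that of astrocyte and endothelial markers, given above, and the part of cell type in it was not tested. Of the cell cycle lists, 12 of 14 G2 and mitosis genes fell in IP and 0 rose, while of 30 DNA replication genes 15 rose and 10 fell. Of 11 variant histones 7 rose and 2 fell. Over all genes 41.6% rose and 42.1% fell. H2afv (1.95 ± 0.05), H3f3a, which encodes the variant H3.3 (1.51 ± 0.04), and H1f0 (1.26 ± 0.05) rose, and Cenpa fell by 1.82 ± 0.29.

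Diet was compared within IP, the study's main question, and within INPUT. In IP 45 histone genes were tested and 2, Hist2h2aa1 and Hist1h2ap, were higher in HFD, beside 0.0378% of the 15858 genes tested. Summed with their near-identical copies, neither was called, and 1 of the 2 calls was lost without any of CD IP 2, CD IP 4, HFD IP 1, HFD IP 3 or HFD IP 4. The median log2 fold change of the 45 was 0.18, 36 were positive, and 7 had an unadjusted p under 0.05, beside 11.5% of all genes. The sum over all 65 genes was 904, 1086, 1044 and 816 CPM in CD IP and 1076, 1031, 1128 and 1117 CPM in HFD IP. The groups overlapped, with a log2 difference of 0.19 ± 0.09. Beside it, summed astrocyte markers were at 16759 to 19468 CPM in CD IP and 14510 to 16626 CPM in HFD IP, without overlap, though none of the 6 passed. Summed leukocyte markers were at 32.1 to 37.5 CPM in CD IP and 42.7 to 49.1 CPM in HFD IP, also without overlap. Of 3 leukocyte markers tested 2 had a positive and 1 a negative log2 fold change. Only Ighm, an immunoglobulin heavy chain, passed and was higher in HFD (adjusted p = 0.0129). Against INPUT 1 of 4 leukocyte markers rose in IP and 3 fell, so their sum need not follow the share of leukocytes. The part of these cell types in the histone values was not tested.

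**Figure D5:**
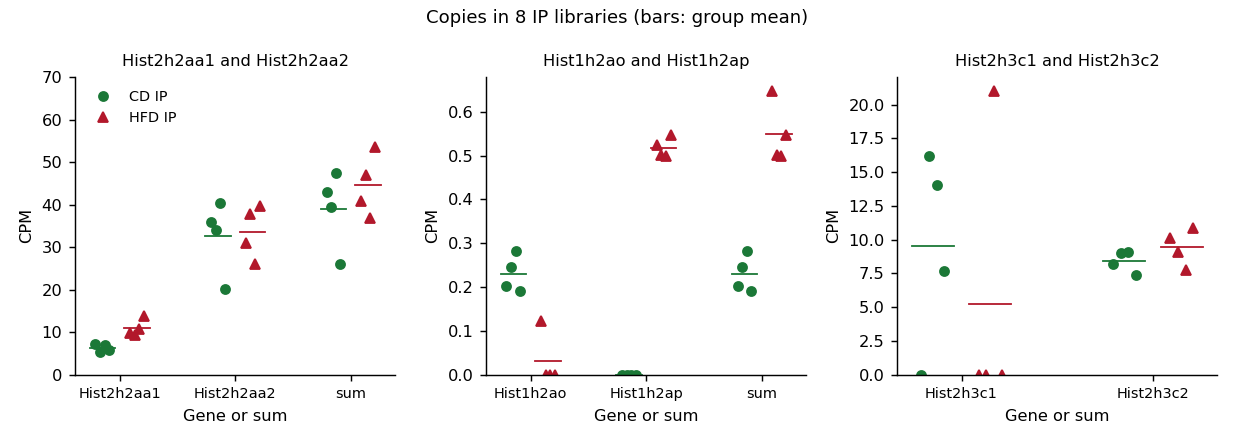
CPM (y axes, from 0) of copies and their sums (x axis) in the 8 IP libraries, CD as green circles and HFD as red triangles, with bars at group means. Hist2h2aa1 and Hist1h2ap separate by diet, their copies Hist2h2aa2 and Hist1h2ao do not or go the other way, and Hist2h3c1 is at 0 in 4 of 8 libraries.

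Hist2h2aa1 stood at 7.19, 5.22, 7.05 and 5.81 CPM in CD IP and 9.91, 9.22, 10.9 and 13.7 CPM in HFD IP. The groups did not overlap, and it rose by 0.82 ± 0.14 (adjusted p = 0.0311). Hist2h2aa2 stood at 35.9, 34.1, 40.5 and 20.1 CPM in CD IP and 31.0, 37.8, 26.0 and 39.8 CPM in HFD IP, overlapping widely. The sum of both differed by 0.21 ± 0.20 (adjusted p = 0.757). Hist1h2ap was at 0 in all 4 CD IP libraries and at 0.524, 0.501, 0.500 and 0.547 CPM in HFD IP. A floor of 3 counts in each CD IP library is 0.0681 to 0.102 CPM. By the counts assigned to Hist1h2ap alone, it was then at least 5.09-fold higher in HFD IP (adjusted p = 0.00289). This bound takes the split between copies as given, so it need not hold for the RNA. The copy Hist1h2ao had 0.203, 0.245, 0.282 and 0.191 CPM in CD IP and 0.123, 0, 0 and 0 CPM in HFD IP, the opposite order. The sum of both had a mean of 0.230 CPM in CD IP and 0.549 CPM in HFD IP. It differed by 1.24 ± 0.35 (adjusted p = 0.162). Hist2h3c1, whose 50-base words all occur elsewhere, was at 0 in 1 of 4 CD IP and 3 of 4 HFD IP libraries and at 7.69 to 20.997 CPM in the others.

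Further genes had values above CD without passing the test. Hist1h4h stood at 6.88, 6.64, 6.75 and 4.29 CPM in CD IP and 7.04, 8.26, 7.76 and 9.60 CPM in HFD IP. It did not overlap between diets, with a log2 fold change of 0.43 ± 0.15 (adjusted p = 0.242). Hist1h2bc stood at 445, 568, 527 and 406 CPM in CD IP and 576, 543, 653 and 595 CPM in HFD IP, with some overlap and 0.30 ± 0.09 (adjusted p = 0.226). Hist1h2be had 0.27 ± 0.09 (adjusted p = 0.219). By libraries alone, 2 of the 34 genes with a mean of at least 1 CPM, Hist2h2aa1 and Hist1h4h, were higher in every HFD IP library, beside 2.86% of all genes.

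In INPUT none of 47 histone genes passed, beside 0.0355% of all genes that passed in either direction. DESeq2 called 0 too, and 6 had an unadjusted p under 0.05, beside 7.45% of all genes. The median was 0.25 and 37 were positive. The sum over all genes was 290, 288, 296 and 276 CPM in CD and 319, 275, 319 and 342 CPM in HFD, overlapping, with a log2 difference of 0.13 ± 0.06. The smallest p belonged to Hist1h2bc, at 75.0, 72.1, 81.7 and 69.8 CPM in CD and 88.3, 77.5, 87.3 and 94.2 CPM in HFD (0.22 ± 0.06, adjusted p = 0.438). Next came the H2B genes Hist1h2bj (0.50 ± 0.21), Hist1h2bg (0.60 ± 0.26) and Hist1h2bn (0.62 ± 0.28) and the H2A gene Hist3h2a (0.15 ± 0.07). The diet effect in IP minus that in INPUT passed for 0 of 52 genes, beside 0% of all, with 3 at an unadjusted p under 0.05, beside 4.29% of all, and none called by DESeq2. Hist1h2ap, Hist1h4f, Hist2h3b, Hist1h2bp and Hist1h4b had the smallest p, all at an adjusted p of 1.00.

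Beside these values, all 14 G2 and mitosis genes had positive log2 fold changes in HFD INPUT (median 0.67) and all 8 tested had them in HFD IP (median 1.05), though none passed in either. Of the DNA replication genes 20 of 30 were positive in INPUT (median 0.07) and 18 of 29 in IP (median 0.08), and none passed. Whether they move with the histone values was not tested.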

How the data were processed

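RNA was sequenced from 16 mouse hypothalamus libraries and 9 cEND libraries. The authors deposited 1 table of estimated counts per gene for each, keyed by Ensembl gene ID, with GRCm38 named in the submitters' processing notes. The counting program, annotation and library kit are not given in the sources used here. Symbols, types and extents came from GENCODE M21. Members, gene lists and tests were chosen with earlier results of these data known.

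Estimated counts were rounded, filtered (filterByExpr), scaled (TMM) and fitted over all genes with edgeR 4.0.16's robust quasi-likelihood test in R 4.3.3, with Benjamini-Hochberg adjustment and a threshold of 0.05. Fold changes are log2 ± SE. Sums over types, clusters and copies replaced their members and were fitted with all other genes. The fit recovered seeded changes in simulated counts. DESeq2 1.42.0, other scalings and filters and leaving out each library were alternatives. Word sharing was counted over 50-base words of GENCODE M21 transcripts, and genes sharing 80% or more were summed as copies.

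Named genes were the 4 markers, those past the threshold (at most 6 per direction with an average log2 CPM of at least 0 where more than 12 passed, otherwise all), the 5 of smallest p where fewer than 5 passed, and the highest per kilobase of each type. Same-numbered cEND libraries share a passage, and their deviations from group means correlated at 0.38 to 0.58 (other pairs -0.41 to -0.08), so passages pair libraries. Pool numbers paired INPUT with IP weakly at most, at -0.01 to 0.14 (other pairs of a diet -0.14 to 0.09). In CD alone same-numbered pairs lay at 0.05 to 0.11 and other pairs at 0.02 or less. The main fit of IP against INPUT held no pool term, and the count with a replicate block is given below. Passages come from 1 line, so p-values measure the spread between these libraries, which may be technical. No pair of libraries of a group agreed within sampling noise.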

Additional observations from a re-analysis of the deposited data

Results flagged for a closer look

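In groups of 4 libraries, 107 histone gene levels and sums were examined and 8 had a library whose gap to the nearest other exceeded Dixon's critical share of the group's range, a limit that chance passes in about 1 of 20 groups. Hist2h2aa1 was at 0.764 CPM in CD INPUT 2 and at 0 in the other 3. Hist1h1c was at 16.6 CPM in HFD INPUT 4 and 14.5 to 14.6 CPM in the others, and Hist1h2be in that library was at 12.7 CPM against 11.2 to 11.4 CPM. Hist1h2be was at 33.9 CPM in HFD IP 2 against 38.5 to 39.2 CPM. Hist1h4h was at 4.29 CPM in CD IP 4 against 6.64 to 6.88 CPM, and the sum of H1 genes there was 118 CPM against 154 to 157 CPM. Hist1h2bj was at 1.84 CPM in CD IP 3 against 1.21 to 1.30 CPM. The sum of H3 genes was 35.0 CPM in HFD IP 3 against 14.6 to 17.9 CPM, and Hist2h3c1 was at 20.997 CPM in that library and at 0 in the other HFD IP libraries.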

How the results depend on the processing

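Counts of histone genes called and differences of the sum mostly held, the counts within 1.5 times of the main count (142 values held, 42 moved further). In HFD against CD IP the count of 2 became 1 with DESeq2, 4 with no filter on low counts and 0 with near-identical copies summed, an alternative chosen after seeing the data, and in INPUT it became 1 with no filter. For passage 18 against 12 the 14 became 29 with no filter and 0 with no treatment term, for 14 against 12 the 1 became 2 with DESeq2, 13 with no filter and 0 with no treatment term, and for 18 against 14 the 19 became 32 with DESeq2, 34 with no filter and 0 with no treatment term. For 10 µM against DMSO the 40 were 53 with DESeq2 and 34 with no filter. With the replicate block the counts were 56 for 10 µM against DMSO, 55 against 0.5 µM, 0 for 0.5 µM against DMSO and 35 for IP against INPUT. Leaving out 1 library at a time gave 3 to 50 for 10 µM against DMSO, 3 to 51 for 10 µM against 0.5 µM, 8 to 38, 1 to 21 and 11 to 46 for passages 18 against 12, 14 against 12 and 18 against 14, 1 to 2 for HFD IP, 33 to 37 for IP against INPUT and 0 elsewhere. The log2 difference of the sum between IP and INPUT was 2.01 on plain totals and 1.43 without ribosomal RNA and mitochondrial genes. Among fold changes of named genes 3 turned sign when 1 library was left out, all at 0.5 µM against DMSO, with ranges of -0.23 to 0.074 for Hist3h2a, -0.42 to 0.043 for Hist3h2ba and -0.081 to 0.70 for Hist1h2ba. Between IP and INPUT Hist3h2a turned from -0.20 to 0.043 on plain totals, a setting added for this gene after seeing the data. Of the rest, 116 values were no longer past the threshold, 10 newly were and 1005 stayed. The cause of these shifts was not tested. Counts without a share of all genes here or above are not read as results about the histone genes. Depth limits the tissue result, where genes under about 0.1 CPM rest on a few counts per library.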
